A study of Mus musculus with 8 samples.

Results

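The authors' list holds 915 regions with more p53 binding in bleomycin-treated (BLM) than in vehicle-treated (CTRL) alveolar organoids. Of these, 394 regions also carried a p53 peak in vehicle-treated organoids. They were selected on measured values: each is on the authors' list and shares at least 1 bp with a peak called in at least 1 of the 2 CTRL libraries. They are called vehicle-called regions here, and the other 521 regions, with no peak in either CTRL list, are called BLM-only regions. Both BLM lists held a peak over every one of the 394. In the CTRL lists 280 regions had a peak in both libraries and 114 in 1 library, of which 68 were called only in CTRL replicate 1 and 46 only in CTRL replicate 2.

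The organoids were grown from AT2 cells, the surfactant-producing progenitors of the alveolus, sorted from wild-type male mice aged 8 to 12 weeks. Passaged organoids received DMSO (CTRL, 2 libraries) or 100 μM BLM (2 libraries) on culture day 6 and were cross-linked 24 h later, and chromatin was precipitated with the p53 antibody D2H9O. More than 1 wild-type mouse was used, and the labels do not say which libraries share a mouse, so spread between libraries may be partly technical. The 4 input libraries were not analysed here. Peak lists hold no expression, so the labelled cell type could not be checked against its markers, and they hold no read counts, so the depth of each library is unknown and only the number of libraries, 2 per group, and of peaks bounds the precision. The lists held 50430 and 48743 peaks in CTRL and 39577 and 41451 in BLM. Each peak has a fold enrichment, its height over the local background as the peak caller estimated it.

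p53 is a transcription factor that is kept low in unstressed cells by the ubiquitin ligase Mdm2 and accumulates after DNA damage. It binds as a tetramer to response elements made of a pair of half-sites, at promoters and at distant enhancers of genes that halt the cell cycle, trigger apoptosis, change metabolism or limit p53 itself. Bleomycin breaks DNA strands, and in lung tissue it injures the alveolar epithelium and is used to model fibrosis.

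The sequences of 6 promoters are shown as examples of vehicle-called regions near a transcription start site (TSS), 4 because the window holds a p53 site and 2 because it holds none. A full p53 site was searched as a pair of half-sites of the p53 consensus, which reads the same on both strands, with the C and G of each half-site fixed, at most 2 mismatches over 20 consensus positions and a spacer of at most 13 bases. Overlapping matches were allowed and the best was kept. The mismatch limit was chosen after the data were seen. RefSeq promoter windows of GRCm38.p6 reach from 250 bases before to 50 after the TSS. Of the 394 regions, 28 were centred in that range by the deposited distance, 24 of these matched a RefSeq gene and 19 of these genes have a single window. A site was found in 4 of the 19 windows (21.1%), against 1341 of all 32817 windows (4.09%). Among the 3 BLM-only regions with a single window, 1 had a site. The windows with a site belong to *Ccng1*, *Ckap2*, *Trim32* and *Pid1*, and their bases before the TSS follow, on the coding strand, with the half-sites in capitals.
*Ccng1* (GRCm38.p6 chr11:40755287-40755536, minus strand): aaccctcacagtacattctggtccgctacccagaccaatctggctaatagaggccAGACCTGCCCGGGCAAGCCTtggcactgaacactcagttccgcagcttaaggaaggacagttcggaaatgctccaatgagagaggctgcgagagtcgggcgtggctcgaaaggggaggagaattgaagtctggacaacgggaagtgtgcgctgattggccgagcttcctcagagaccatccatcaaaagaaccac
*Ckap2* (GRCm38.p6 chr8:22185820-22186069, minus strand): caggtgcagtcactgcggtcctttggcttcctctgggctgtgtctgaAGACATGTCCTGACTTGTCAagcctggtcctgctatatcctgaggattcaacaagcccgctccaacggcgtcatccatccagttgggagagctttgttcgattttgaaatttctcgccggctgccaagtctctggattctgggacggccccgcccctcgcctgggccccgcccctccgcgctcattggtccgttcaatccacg
*Trim32* (GRCm38.p6 chr4:65604736-65604985, plus strand): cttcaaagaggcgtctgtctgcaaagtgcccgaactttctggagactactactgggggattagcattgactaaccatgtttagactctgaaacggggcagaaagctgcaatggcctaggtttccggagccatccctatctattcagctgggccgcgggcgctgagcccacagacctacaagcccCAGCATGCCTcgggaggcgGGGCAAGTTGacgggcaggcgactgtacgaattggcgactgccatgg
*Pid1* (GRCm38.p6 chr1:84284646-84284895, minus strand): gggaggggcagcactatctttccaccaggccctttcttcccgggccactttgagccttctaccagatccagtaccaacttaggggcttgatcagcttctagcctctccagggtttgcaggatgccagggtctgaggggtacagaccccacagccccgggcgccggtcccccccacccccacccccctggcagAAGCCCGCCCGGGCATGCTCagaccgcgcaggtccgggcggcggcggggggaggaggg

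Most of the 19 windows, 15, had no such match. Of these *Pdcd5* and *Phlda3* are shown, picked after their values were seen because their peaks differed between conditions in unlike ways. Their best matches had 6 and 5 mismatches, so no letters are capitalised. A window without a match says only that these letters are not in it.
*Pdcd5* (GRCm38.p6 chr7:35647483-35647732, minus strand): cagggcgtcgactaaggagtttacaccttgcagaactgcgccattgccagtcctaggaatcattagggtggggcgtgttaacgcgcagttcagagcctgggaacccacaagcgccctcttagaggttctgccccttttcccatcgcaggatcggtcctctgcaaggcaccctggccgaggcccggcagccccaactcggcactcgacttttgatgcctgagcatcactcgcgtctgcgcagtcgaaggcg
*Phlda3* (GRCm38.p6 chr1:135765835-135766084, plus strand): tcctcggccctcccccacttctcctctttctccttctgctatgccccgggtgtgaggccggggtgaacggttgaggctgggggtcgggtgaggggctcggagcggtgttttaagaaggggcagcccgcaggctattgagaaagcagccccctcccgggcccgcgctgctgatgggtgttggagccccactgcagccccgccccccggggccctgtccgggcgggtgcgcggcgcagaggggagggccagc

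The *Ccng1* site had 1 mismatch and no spacer and lay 176 to 195 bases before the TSS. The *Ckap2* site (2 mismatches, no spacer) lay 184 to 203 bases before its TSS, the *Pid1* site (2 mismatches, no spacer) 39 to 58 bases and the *Trim32* site (2 mismatches, a spacer of 9) 38 to 66 bases. *Ccng1* encodes cyclin G1, *Ckap2* a protein of the mitotic spindle, *Trim32* a ubiquitin ligase and *Pid1* an adaptor in insulin signalling. At *Ccng1* the peaks in all 4 libraries had their summits within 4 bp of the region middle, and the fold enrichment was 17.0 and 18.1 in CTRL and 45.3 and 52.4 in BLM. At *Ckap2* the folds were 10.6 and 7.19 in CTRL and 32.7 and 55.5 in BLM. There the CTRL summits were 115 and 37 bp to the left of the region middle, toward lower coordinates, against 1 bp to the left and 23 bp to the right in BLM. *Pid1* was called only in CTRL replicate 2 (fold 5.33, summit 119 bp to the left), and in BLM its folds were 18 and 17.0 with summits 31 and 19 bp to the right. *Trim32* was called only in CTRL replicate 1, with a fold of 6.51, and had 9.39 and 22.0 in BLM. By contrast *Pdcd5* had 47.0 and 52.6 in CTRL and 47.0 and 50.3 in BLM, with all 4 summits 3 to 13 bp left of the middle. *Phlda3*, also without a match, had 19.8 and 13.1 in CTRL and 61.5 and 74.1 in BLM. Over the 19 windows, every BLM fold was above every CTRL fold in all 4 with a site and in 11 of the 15 without one. Over the 280 regions with a peak in all 4 libraries it was 243 (86.8%). The enriched list was made from this contrast and *Trim32* and *Pid1* had 1 CTRL fold each, so nothing is read from the split. The deposited distances and RefSeq may place a TSS differently. Of 268 pairs of genes that share a region, 125 (46.6%) had the same TSS separation in both within 50 bp, so no distance between a summit and a site is given.

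A call in CTRL was common over the lists as a whole. Of 29499 joined regions (overlapping peaks of the 4 lists merged) that were called in both BLM lists, 28213 (95.6%) were also called in at least 1 CTRL list. Among the 915 enriched regions it was 394 (43.1%), and since the enriched list was made from the same contrast this is a description.

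Ranked by fold enrichment within each list, with 100 as the highest percentile, the vehicle-called regions sat near the middle of the CTRL lists and near the top of the BLM lists. Their median percentile was 56.5 in CTRL replicate 1 (n = 348 regions called) and 57.7 in CTRL replicate 2 (n = 326), and 98.7 in each BLM list (n = 394). BLM-only regions had medians of 75.5 and 73.9 in BLM. The median fold enrichment of vehicle-called regions was 8.02 and 8.20 in CTRL and 20.7 and 21.0 in BLM, against medians over the whole lists of 7.37 and 7.29 in CTRL and 6.67 and 6.59 in BLM. In CTRL the folds ran from 1.85 to 83.1 and from 1.76 to 84.8, and in BLM from 3.37 to 118 and from 2.75 to 108. In CTRL 153 of 348 and 144 of 326 regions lay below the median of their list, and in BLM 26 and 23 of 394 did.

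**Figure D1:**
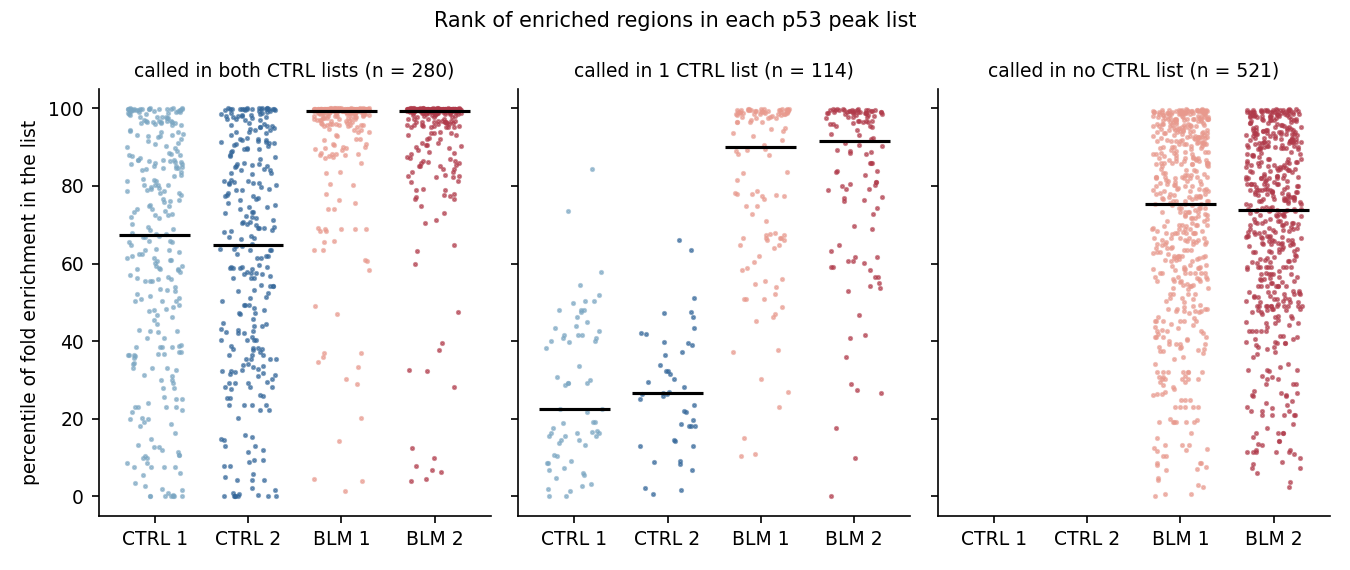
Percentile of fold enrichment (vertical axis, 100 is the highest peak of a list) of each enriched region in the 4 p53 peak lists, for regions called in both, in 1 or in no CTRL list; each point is a region and black lines are medians. Regions called in both CTRL lists spread over the whole CTRL range with medians of 67.4 and 64.8 and crowd at the top of both BLM lists, those called in 1 list lie low in CTRL, and BLM-only regions have medians of 75.5 and 73.9 in BLM.

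The strongest p53 peaks after BLM were nearly all over vehicle-called regions. All 10 of the 10 highest peaks of each BLM list were, as were 88 and 86 of the 100 highest. In CTRL it was 3 of the 10 highest peaks in each list, 15 of the 100 highest in replicate 1 and 16 of the 101 highest, with a tie, in replicate 2. Of the 180 enriched regions in the top 1% of both BLM lists, 162 (90%) were vehicle-called. The top 1% of a list held 27 and 24 vehicle-called regions in CTRL (7.76% and 7.36% of those called) and 183 and 179 in BLM (46.4% and 45.4%). The enriched list was chosen for its BLM signal, so these counts describe the chosen regions and are not tested.

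Among the 280 regions called in all 4 libraries, both BLM percentiles were above both CTRL percentiles in 242 (86.4%), and 3112 of all 26316 joined regions called in all 4 lists (11.8%) showed this order. The rule used that contrast, so nothing is read from the difference. Both BLM folds were above both CTRL folds in 243 of the 280, and the ratio of the mean BLM to the mean CTRL fold had a median of 2.41 (quartiles 1.61 and 3.72, range 0.689 to 10.5). The percentile ranges of CTRL and BLM overlapped in 33 regions, and in 5 regions both BLM percentiles were below both CTRL percentiles. With 2 libraries against 2, an exact permutation test allows no two-sided p below 0.333, so no single region could pass a test over libraries.

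**Figure D2:**
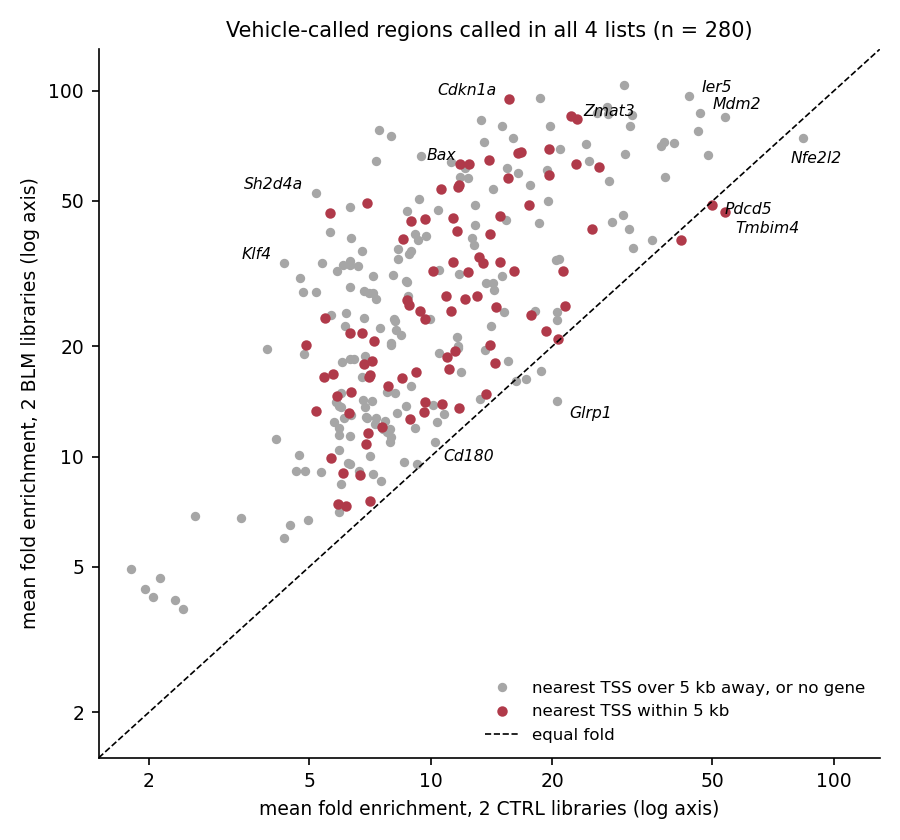
Mean fold enrichment in the 2 CTRL libraries (horizontal, log axis) against the mean in the 2 BLM libraries (vertical, log axis) for the 280 regions called in all 4 lists, red where the nearest TSS is within 5 kb. Most points lie above the dashed line of equal fold, by a median ratio of 2.41; *Nfe2l2*, *Tmbim4*, *Pdcd5* and *Glrp1* lie on or below it.

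Regions called in both CTRL lists had higher medians than those called in 1 in each library. The former had median folds of 9.48 and 9.10 in CTRL and 25.4 and 25.5 in BLM. Those called in 1 list had a median of 5.36 in the 68 called only in CTRL replicate 1 and 5.62 in the 46 called only in replicate 2, with 12.2 and 13.2 in BLM. Their median percentile was 22.5 and 26.6 in CTRL and 90.1 and 91.5 in BLM. The enriched list was made from this contrast, so the rise is a description. It says nothing about faint vehicle peaks outside the list. By the mean of the BLM percentiles the highest region called in 1 CTRL list lay 2176 bp upstream of *Mapre3*, a microtubule end-binding protein. It had a fold of 10.5 in CTRL replicate 1, none in replicate 2, and 36.1 and 55.6 in BLM. A region 8055 bp downstream of the TSS of *Bcl2l11*, which encodes the apoptosis activator Bim, had 8.91 in CTRL replicate 2 alone and 42.6 and 38.7 in BLM. In BLM replicate 1 alone the highest fold of these regions was 58.3, at a region assigned to *Mansc4* with 21.2 in replicate 2. The regions of *Mapre3*, *Bcl2l11* and *Mansc4* were picked for naming after their values were seen.

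Peaks over the vehicle-called regions were wider in BLM. The median width of the highest peak was 325 and 319 bp in CTRL and 515 and 533 bp in BLM, while the whole lists had medians of 330 and 322 bp in CTRL and 281 and 279 bp in BLM. BLM-only regions had median widths of 233 and 222 bp in BLM. Of the 280 regions called in all 4, both BLM peaks were wider than both CTRL peaks in 189 (67.5%), against 1631 of 26316 joined regions (6.2%), and both were narrower in 5. The largest gains in width were at *Cdkn1a*, which encodes the cyclin-dependent kinase inhibitor p21. At its region 735 bp downstream of the TSS the peaks spanned 158 and 589 bp in CTRL and 2798 and 2704 bp in BLM, and at the region 2830 bp upstream 266 and 360 bp against 2013 and 2296 bp. Called width depends on signal, and the enriched list was made from the BLM against CTRL contrast. The widths are therefore a description, and nothing is read from the difference to all joined regions. The part of library depth, which is unknown, in the called widths was not tested.

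Summits, the bases of highest signal in a peak, lay close together across libraries. Over the 280 regions called in all 4, the nearest summits of the 2 CTRL libraries lay a median of 26 bp apart and those of the 2 BLM libraries 11 bp. The 4 pairings of a CTRL with a BLM library had medians of 24 to 29 bp, near the distance between the CTRL libraries themselves. A distance within 50 bp was found for 69.3% of regions between the CTRL libraries, 88.9% between the BLM libraries and 67.9% to 70.4% between CTRL and BLM. It was over 100 bp in 39, 15 and 52 to 62 regions. In the 146 of the 280 regions that were in the top 1% of both BLM lists, summits were closer: medians of 17 bp between CTRL libraries, 8 bp between BLM libraries and 13 to 17 bp between CTRL and BLM.

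**Figure D3:**
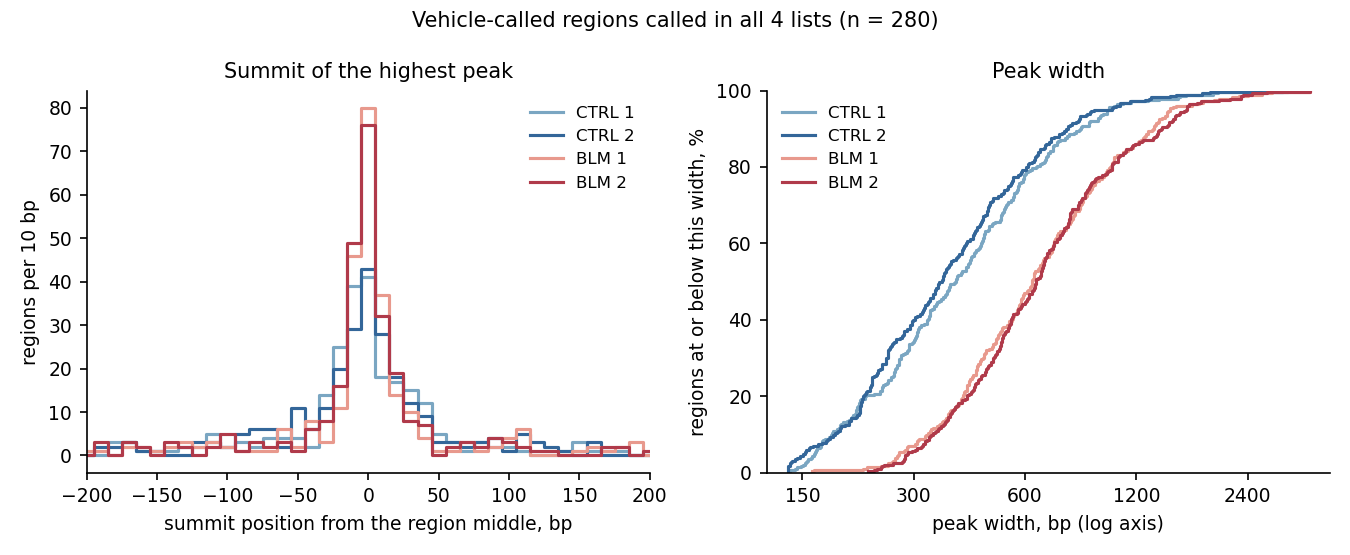
Left, position of the summit of the highest peak relative to the middle of the enriched region, in bins of 10 bp, and right, cumulative share of regions by peak width (log axis), for the 280 regions called in all 4 lists in each library. Summits pile up at the middle in all 4 libraries, more sharply in BLM (36 and 27 CTRL summits and 11 and 7 BLM summits lie over 200 bp away, outside the plot), and the BLM width curves lie to the right of the CTRL curves.

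Vehicle-called regions were closer to TSSs than BLM-only regions. The distance to the nearest assigned TSS was not used to choose them. It comes from the authors' gene table, made with GREAT, which assigns to a region each gene whose domain holds it; 389 of the 394 regions and 520 of the 521 BLM-only regions have a gene. A TSS was within 5 kb for 115 of 389 vehicle-called regions (29.6%, 95% Wilson interval 25.2% to 34.3%) and for 62 of 520 BLM-only regions (11.9%, 9.41% to 15.0%). A two-sided Fisher's exact test gave an odds ratio of 3.10 and p = 4.17e-11, or 8.35e-11 after Benjamini-Hochberg adjustment over 2 tests. Within 1 kb it was 63 against 18 regions. The median distance was 17351 bp against 36058 bp. Regions are not replicate samples and neighbours share a locus, so the p describes these regions only and intervals cover counting error only.

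Regions called in both CTRL lists were within 5 kb of a TSS in 89 of 275 cases (32.4%, 27.1% to 38.1%) and those called in 1 in 26 of 114 (22.8%, 16.1% to 31.3%). This difference missed the threshold (odds ratio 1.62, Fisher's exact test p = 0.0674, the same after adjustment). It depended on the distance chosen: within 1 kb the counts were 55 of 275 and 8 of 114, and Fisher's exact test gave an odds ratio of 3.31 and p = 0.00133. Regions within 5 kb of a TSS were called in both CTRL lists in 77.4% of cases and had median CTRL percentiles of 70.2 and 69.2, against 48 and 55.1 for those over 50 kb away. In BLM these medians were 99 and 99 against 98.5 and 98.2.

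The share near a TSS was also split by rank in BLM, because vehicle-called regions rank higher there. Among regions with a mean BLM percentile of 99 or more, 54 of 173 vehicle-called (31.2%) and 4 of 24 BLM-only regions (16.7%) were within 5 kb. Between 75 and 90 it was 14 of 53 (26.4%) and 9 of 118 (7.63%). Below 50 it was 2 of 17 (11.8%) and 16 of 107 (15.0%), the only band in which the vehicle-called share was the lower one. Over regions with a mean BLM percentile of at least 90, Fisher's exact test gave an odds ratio of 2.86 and p = 0.000185, a comparison chosen after the data were seen.

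**Figure D4:**
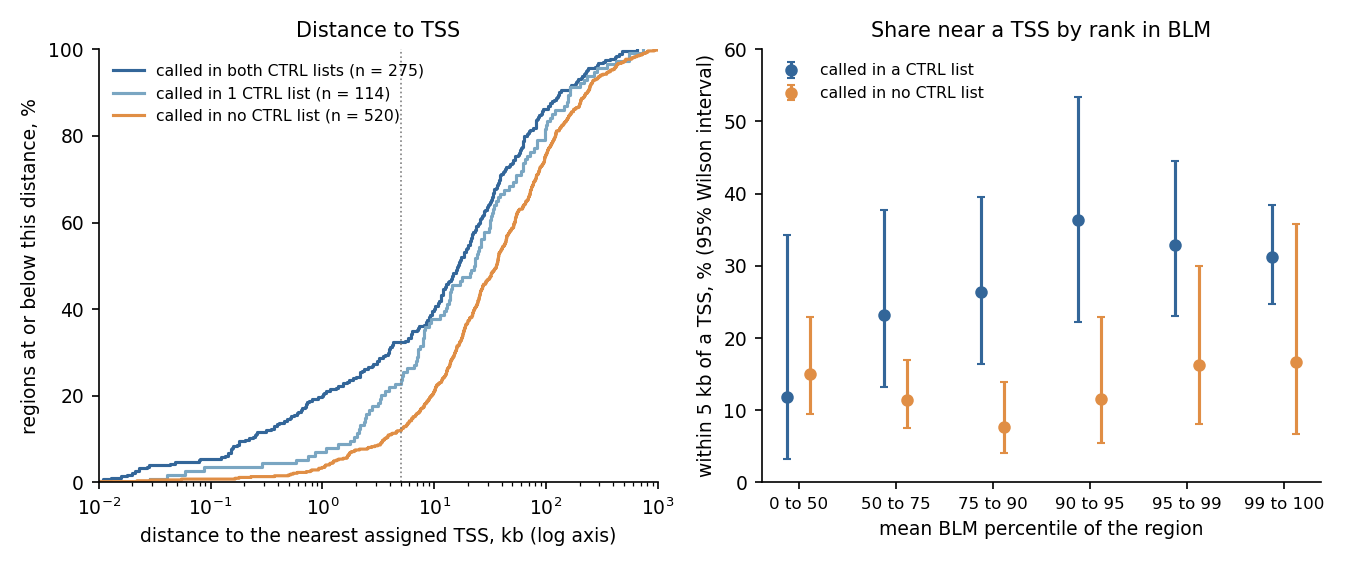
Left, cumulative share of regions by distance to the nearest assigned TSS (log axis; dotted line at 5 kb) for regions called in both, in 1 or in no CTRL list; right, share within 5 kb of a TSS by mean BLM percentile, with 95% Wilson intervals. At 5 kb the curves stand at 32.4%, 22.8% and 11.9%, and the vehicle-called share is the higher one in every band but the lowest.

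Upstream and downstream positions were about equally common. The middle of the region was upstream of the nearest TSS in 177 of 389 (45.5%), and within 5 kb in 60 of 115. In all, 627 of the 1425 genes in the authors' table were assigned a vehicle-called region, 97 of them also a BLM-only region, and 53 had at least 2 vehicle-called regions. Chromosome 7 held the most vehicle-called regions, 37 of its 67 enriched regions, of which 19 were called in 1 CTRL list. On chromosome 8 it was 26 of 45, of which 2 were. The highest share was on chromosome 17, 23 of 39 (59%), of which 6 were called in 1 CTRL list. Over all chromosomes and contigs it was 394 of 915 (43.1%), of which 114 were. Differences between chromosomes were not tested.

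Of the 1425 genes with an enriched region, 627 (44.0%) had a vehicle-called one, and 126 of the 627 (20.1%) had one within 5 kb of their TSS. Of 111 distinct genes on 6 lists of p53 targets and growth factors, 44 had an enriched region, 35 of these (79.5%) a vehicle-called one, and 22 of the 35 (62.9%) one within 5 kb. The lists were made with these results known, so the shares are a description and no evidence of their own.

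Of 16 listed cell cycle genes, 8 had an enriched region. All 8 had a vehicle-called one, 6 of them within 5 kb, and none had BLM-only regions alone; over all genes the shares were 44.0% and 20.1%. *Cdkn1a* had 3 vehicle-called and 2 BLM-only regions. The one 2830 bp upstream of the TSS (GRCm39 chr17:29309717-29310116) had folds of 14.2 and 17.1 in CTRL and 86.8 and 103 in BLM, where its ranks were 9 and 2 in the whole lists. The more distant region at 14722 bp upstream had 38.1 and 36.4 in CTRL, and 61.2 and 80.1 in BLM. The region 735 bp downstream had 5.38 and 4.43 in CTRL and 21.1 and 19.4 in BLM. The summit behind the fold of 21.1 lay 838 bp left of the region middle, outside the region. In all 3 regions both BLM values were above both CTRL values. This order held in 243 of the 280 regions called in all 4 lists (86.8%), which were chosen by this contrast. The BLM-only regions, 3585 and 6917 bp downstream, had lower folds in BLM of 7.92 and 6.52 and of 7.09 and 10.4.

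Other members of the list act at separate points of the cycle. *Psrc1*, a spindle protein, had folds of 11.6 and 21.9 in CTRL and 77.0 and 58.8 in BLM at 807 bp downstream of its TSS. *Plk2*, a polo-like kinase, had 11.0 and 10.2 in CTRL and 54.9 and 53.1 in BLM at 2155 bp upstream. *Btg2*, an antiproliferative factor, had 20.8 and 11.3 in CTRL and 39.0 and 25.5 in BLM at 263 bp upstream. None of these regions showed an overlap between the CTRL and BLM values, and 86.8% of the regions called in all 4 lists had both BLM folds higher. *Tob1*, an antiproliferative relative of Btg2, had a region 76865 bp upstream that was among the highest in vehicle, with 58.3 and 49.4 in CTRL and 102 and 67.6 in BLM. *Ccnd1*, which encodes cyclin D1, was called in 1 CTRL list only, with 7.78, and had 14.1 and 10.7 in BLM at 31504 bp upstream. Its CTRL summit lay 362 bp left of the region middle, and its BLM summits 163 and 203 bp right of it.

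Of 21 listed apoptosis genes, 9 had a vehicle-called region, 8 of them within 5 kb, and *Fas* and *Bcl2* had BLM-only regions alone. The other 10 had no enriched region and fall outside the share that follows. Over all genes with an enriched region, 44.0% had a vehicle-called one, and 20.1% of those had one within 5 kb. *Bax*, which encodes the pore-forming effector of the mitochondrial pathway, had folds of 10.6 and 14.3 in CTRL and 65.3 and 60.8 in BLM at 315 bp downstream of the TSS. *Bbc3*, which encodes the BH3-only activator Puma, had 16.9 and 22.4 in CTRL and 84.8 and 54.2 in BLM at 913 bp upstream. Its second region, 608 bp downstream, had 4.38 and 8.15 in CTRL and 15.3 and 11.0 in BLM. In each of these 3 regions both BLM values were above both CTRL values, as in 86.8% of all regions called in all 4 lists. *Pmaip1*, which encodes the BH3-only protein Noxa, was fainter, with 6.39 and 7.67 in CTRL and 19.5 and 13.6 in BLM at 144 bp upstream. *Zmat3*, an RNA-binding protein, had 22.4 and 22.1 in CTRL and 70.7 and 99.7 in BLM at 1335 bp downstream. *Phlda3*, an inhibitor of Akt signalling, had besides the region 20 bp downstream of its TSS, given above, a region 6240 bp upstream. It had 10.8 and 11.7 in CTRL and 66.9 and 60.7 in BLM. The regions of *Aen*, *Eda2r* and *Trp53inp1*, a nuclease, a TNF receptor family member and a p53 cofactor, lay within 521 bp of their TSSs, with CTRL folds of 11.4 to 15.1 and BLM folds of 30.1 to 57.4. *Bcl2l1*, which encodes the survival factor Bcl-xL, was assigned a region 38026 bp away that is nearer to *Cox4i2*, with 43.3 and 36.8 in CTRL and 62.1 and 82.0 in BLM. *Fas*, a death receptor, had no CTRL peak over its region 1702 bp downstream of the TSS and 14.1 and 13.3 in BLM.

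**Figure D5:**
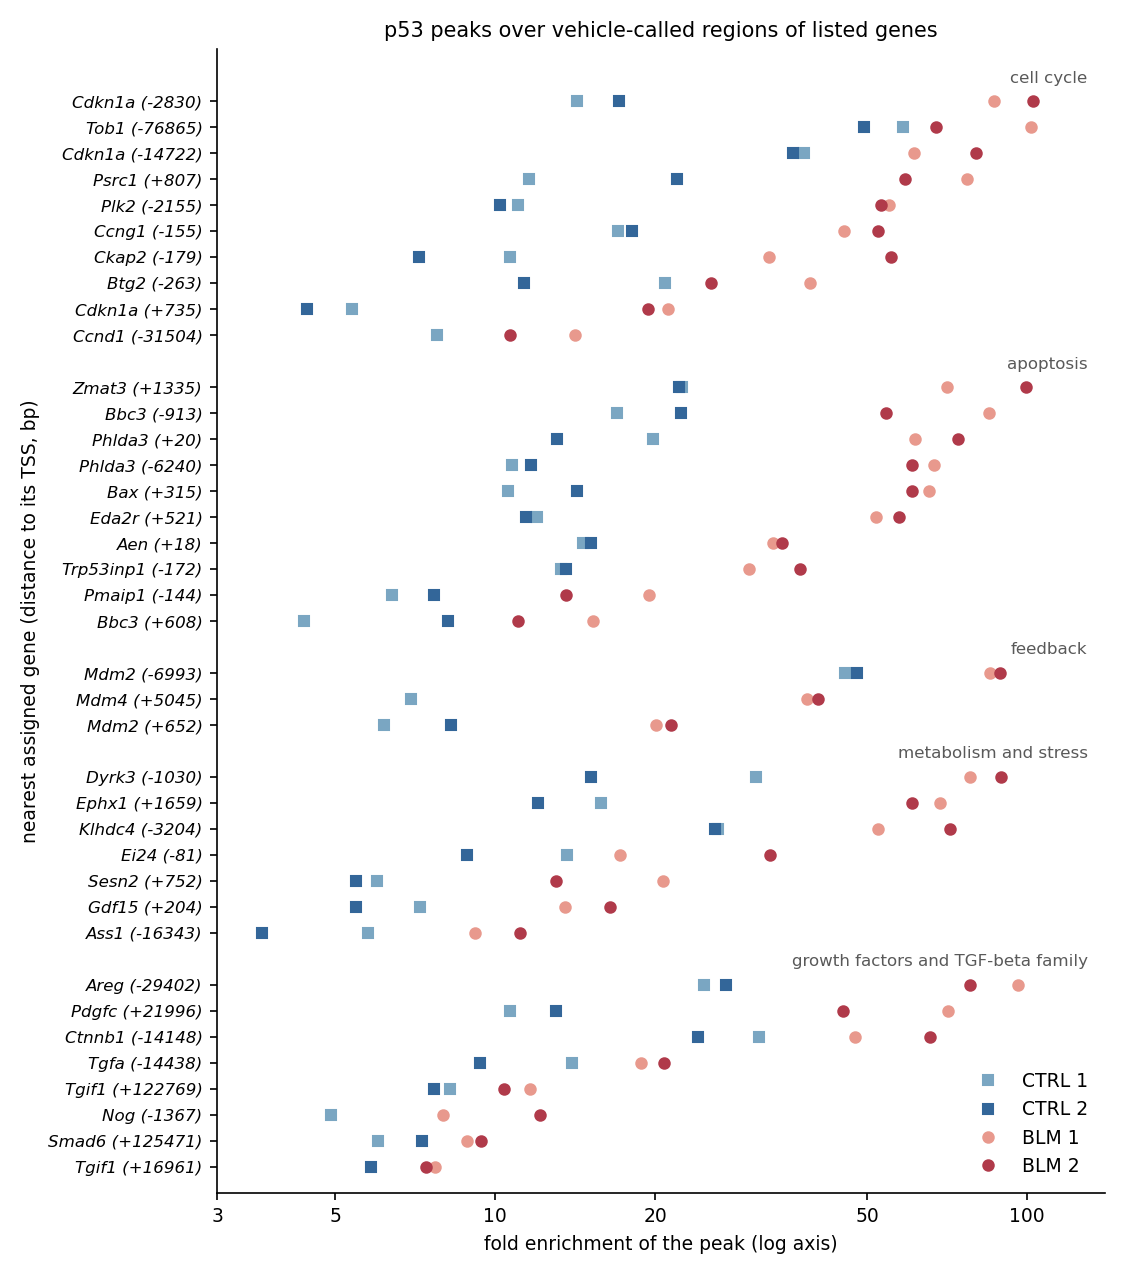
Fold enrichment (horizontal, log axis) in each of the 4 libraries at the vehicle-called regions whose nearest assigned gene is on a list of cell cycle, apoptosis, feedback, metabolism and stress, or growth factor and TGF-beta family genes; numbers in brackets are bp to the TSS, negative for upstream. BLM values (circles) lie to the right of CTRL values (squares) at each region shown, by more at *Cdkn1a* (-2830) than at *Tgif1*. Of the 280 regions called in all 4 lists, 243 (86.8%) have this order, and the enriched list was made from this contrast.

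Genes of p53's own inhibitors had regions that were called in vehicle. Of 12 listed feedback genes *Mdm2* and *Mdm4* had vehicle-called regions, and *Trim24* had a BLM-only region. The other 9 had no enriched region and fall outside the share that follows. Over all genes with an enriched region, 44.0% had a vehicle-called one. *Mdm2*, the ubiquitin ligase that degrades p53, had a region 6993 bp upstream with 45.5 and 47.9 in CTRL, in the top 1% of both lists, and 85.1 and 88.9 in BLM. Its region 652 bp downstream of the TSS was far lower in CTRL, at 6.18 and 8.25, and had 20.0 and 21.4 in BLM. *Mdm4*, which binds and inhibits p53, was called only in CTRL replicate 1 with 6.95 and had 38.6 and 40.5 in BLM at 5045 bp downstream. None of the 11 listed DNA repair genes had a vehicle-called region, and only *Ercc5* had any enriched region, so nothing is read from this count. *Ercc5*, a nuclease of nucleotide excision repair, had a BLM-only region 928 bp downstream of its TSS with BLM folds of 19.0 and 14.2.

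Of 22 listed metabolism and stress genes, 7 had a vehicle-called region, 6 of them within 5 kb, and *Ddit4* and *Zfp365* had BLM-only regions alone. The other 13 had no enriched region and fall outside the share that follows. Over all genes with an enriched region, 44.0% had a vehicle-called one, and 20.1% of those had one within 5 kb. *Dyrk3*, a kinase of stress granule dissolution, had 31.0 and 15.1 in CTRL and 78.0 and 89.2 in BLM at 1030 bp upstream. *Ephx1*, a microsomal epoxide hydrolase, had 15.8 and 12.1 in CTRL and 68.7 and 60.8 in BLM at 1659 bp downstream. *Klhdc4*, at 3204 bp upstream, had 26.2 and 25.9 in CTRL and 52.5 and 71.6 in BLM. These 3 were the highest of the list in BLM among the regions nearest to its genes. None overlapped between conditions, and 86.8% of all regions called in all 4 lists had both BLM folds higher. *Sesn2*, a stress-induced regulator of mTORC1, was low in CTRL with 6.0 and 5.47 and had 20.7 and 13 in BLM at 752 bp downstream. *Gdf15*, a stress-induced cytokine, had 7.23 and 5.47 in CTRL and 13.5 and 16.5 in BLM at 204 bp downstream. A second region assigned to *Gdf15*, nearer to *Pgpep1*, had 25.5 and 16.3 in CTRL and 93.6 and 45.1 in BLM. *Ei24*, an endoplasmic reticulum protein, had 13.6 and 8.86 in CTRL and 17.1 and 32.8 in BLM, and *Ass1*, which makes argininosuccinate, had 5.76 and 3.65 in CTRL and 9.14 and 11.1 in BLM.

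Of 29 listed growth factor and TGF-beta family genes, 9 had a vehicle-called region, 1 of them within 5 kb, and *Ltbp2*, *Itgb6* and *Sptbn1* had BLM-only regions alone. The other 17 had no enriched region and fall outside the share that follows. Over all genes with an enriched region, 44.0% had a vehicle-called one, and 20.1% of those had one within 5 kb. The highest was a region 29402 bp upstream of *Areg* and 35575 bp from *Ereg*, neighbouring genes for ligands of the EGF receptor, with 24.7 and 27.1 in CTRL and 96.0 and 78.2 in BLM. *Ctnnb1*, which encodes β-catenin, had 31.4 and 24.1 in CTRL and 47.5 and 65.8 in BLM at 14148 bp upstream. *Pdgfc*, a platelet-derived growth factor, had 10.6 and 13 in CTRL and 71.0 and 45.0 in BLM at 21996 bp downstream. *Tgfa*, which encodes another EGF receptor ligand, had 14 and 9.37 in CTRL and 18.8 and 20.7 in BLM. The other vehicle-called regions of the list had lower folds in both conditions, while the BLM-only region of *Sptbn1* had 35.0 and 37.7 in BLM. One region shared by *Smad3*, a TGF-beta signal transducer, and *Smad6*, an inhibitory SMAD, had 6.01 and 7.29 in CTRL and 8.85 and 9.40 in BLM. *Nog*, a BMP antagonist, was called only in CTRL replicate 1 with 4.91 and had 7.96 and 12.1 in BLM at 1367 bp upstream. *Tgif1*, a transcriptional corepressor of TGF-beta signalling, had 8.20 and 7.66 in CTRL and 11.6 and 10.4 in BLM at its farther region.

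Of the marker genes of cell states, none of 7 for AT2 cells and none of 6 for AT1 cells, the flat gas-exchange cells, had a vehicle-called region. Over all genes with an enriched region, 627 of 1425 (44.0%) had one. The share over all mouse genes was not computed, so nothing is read from these counts. *Etv5*, an AT2 transcription factor, had a BLM-only region. Of 6 for the transition between these states, *Areg* had the vehicle-called region given above and *Cldn4*, a tight junction protein, a BLM-only one. A gene without a region was not in the enriched list at that locus, which does not mean that p53 was absent there.

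A set of 20 vehicle-called regions stood in the top 1% of both CTRL lists, and all 20 were also in the top 1% of both BLM lists. At the summit of both CTRL lists was a region 63741 bp upstream of *Nfe2l2*, which encodes the oxidative stress factor Nrf2 (GRCm39 chr2:75598527-75598926). It had folds of 83.1 and 84.8 in CTRL and 62.1 and 86.4 in BLM, where its ranks were 41 and 13. Near promoters, *Tmbim4*, a Golgi protein related to a Bax inhibitor, had 60.8 and 46.7 in CTRL and 54.7 and 38.6 in BLM. *Cdk5rap2*, a centrosome protein, had 37.9 and 45.4 in CTRL and 26.6 and 51.6 in BLM. With *Pdcd5* and *Yap1*, a Hippo pathway coactivator with 49.2 and 48.1 in CTRL and 73.4 and 59.8 in BLM, these made up the 5 regions whose percentiles in BLM were both below those in CTRL. At *Yap1* the BLM folds were above the CTRL folds although the percentiles were lower, and the highest fold of a whole list was 118 and 108 in BLM against 83.1 and 84.8 in CTRL.

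Both BLM folds were above both CTRL folds in 15 of the 20, *Yap1* included, against 243 of the 280 (86.8%). They were not at *Nfe2l2*, *Tmbim4*, *Pdcd5*, *Cdk5rap2* and *Bptf*, a chromatin remodelling factor with 46.4 and 29.9 in CTRL and 34.8 and 81.3 in BLM. The ratio of means had a median of 1.63 against 2.41 over the 280. A region 43303 bp from *Ier5*, an immediate early response gene, had 38.7 and 49.0 in CTRL and the highest fold of BLM replicate 1, 118, with 75 in replicate 2. The highest peak of BLM replicate 2 was over a region outside the 20, 13428 bp from *1700029H14Rik*, with 35.2 and 25.2 in CTRL and 99.9 and 108 in BLM. Of the 20, 4 had a TSS within 5 kb, at *Tmbim4*, *Pdcd5*, *Cdk5rap2* and *Klhdc4*. Next to these in mean CTRL percentile among regions within 5 kb of a TSS were *Zfp809*, *Zmat3*, *Fat1*, *Kansl1*, *Cpped1* and *Sp1*. The region 454 bp upstream of *Sp1*, a ubiquitous promoter-binding transcription factor, had 20.4 and 18.8 in CTRL and 57.0 and 60.5 in BLM. That of *Zfp809*, a zinc finger repressor of retroviral DNA, had 25.1 and 20.7 in CTRL and 67.1 and 59.4 in BLM. By contrast *Fat1*, a large cadherin, had 20.4 and 22.6 in CTRL and 25.4 and 26.2 in BLM, and *Cpped1*, a phosphatase, had 18.2 and 23.1 in CTRL and 20.7 and 21.3 in BLM. Only at *Cpped1* among these 6 did the CTRL and BLM folds overlap. At *Fat1* the CTRL summits lay 471 and 425 bp right of the region middle, outside the region. The BLM summits there lay 121 and 110 bp left of the middle, so its folds were read at different positions.

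At the other end, 13 regions were below the median of both CTRL lists and in the top 1% of both BLM lists. The one with the highest BLM folds lay 168257 bp from *Sh2d4a*, an SH2 domain adaptor, with 4.64 and 5.76 in CTRL and 54.0 and 51.2 in BLM. A region 189425 bp upstream of *Klf4*, a transcription factor of epithelial differentiation, had 5.06 and 3.6 in CTRL and 44.1 and 23.5 in BLM. A region 10792 bp upstream of *Lama5*, a laminin chain of the alveolar basement membrane, had 4.51 and 5.88 in CTRL and 24.3 and 32.2 in BLM. The others were assigned to *Taok3*, *Cdca7l*, *Chit1*, *Dstn*, *Lzic*, *Vegfd*, *Ext1*, *Slit1*, *Dnaja2* and *Lrrn3*. Of the 13, only *Lzic*, at 1167 bp, had its region within 5 kb of the TSS. Among the 10 largest rises in mean percentile of regions called in all 4 libraries were also the regions of *Mrps31*, with 3.09 and 4.74 in CTRL and 22.6 and 16.8 in BLM, and *Kmt2c*, with 4.11 and 4.15 in CTRL and 11.9 and 10.4 in BLM. The region of *Prox2* belonged to them too, with 5.33 and 4.38 in CTRL and 16.6 and 21.6 in BLM. The highest ratio of mean folds, 10.5, was at a region 12764 bp upstream of *Wdr20*, with 8.76 and 6.09 in CTRL and 83.6 and 72.4 in BLM, named after its values were seen. *Sh2d4a* had 3 vehicle-called regions, as did *Cdkn1a*, and no other gene had more as the nearest gene.

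Some regions on the enriched list did not have both BLM folds above both CTRL folds. The region 50303 bp upstream of *Glrp1* had 22.2 and 19.0 in CTRL and 16.8 and 11.5 in BLM, and it was the single region of the 280 with both BLM folds below both CTRL folds. Its peaks were wide in every library, at 2000 and 1899 bp in CTRL and 1949 and 2335 bp in BLM. The summits at *Glrp1* lay outside the region in all 4 libraries, on opposite sides of it within each condition. Its folds were therefore read at different positions outside the region, and they do not show a fall within it. The region 205432 bp from *Cd180* had 10.8 and 9.76 in CTRL and 16.0 and 5.91 in BLM, so that the BLM libraries fell on either side of the CTRL values. The 4 vehicle-called regions on unplaced contigs of GRCm39 ranked at the bottom of the CTRL lists, with percentiles of 0.0164 to 1.51, and at 1.42 to 65.6 in BLM.

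The most distant regions were far from any assigned TSS. The farthest, 742672 bp from *Reep3*, was called in 1 CTRL list with 5.93 and had 5.89 and 4.80 in BLM. The region 649373 bp upstream of *Lrrn3* had 6.39 and 6.20 in CTRL and 41.2 and 27.5 in BLM, and that 557327 bp from *Ryr2* had 7.11 in 1 CTRL list and 26.2 and 19.4 in BLM. The region 550772 bp upstream of *Ccdc90b* had 6.95 in CTRL replicate 2 and 7.28 and 8.41 in BLM, and that 476002 bp upstream of *Cntn5* had 7.94 and 8.16 in CTRL and 32.3 and 30.2 in BLM.

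The rule needs an overlap of at least 1 bp. Just inside it were a region near *Frmd8* (overlap of 3 bp), one near *Ppargc1a* (15 bp) and one near *Csnk1g1* (19 bp), and 9 regions overlapped by under 100 bp. Just outside were regions near *Otx2* (gap of 41 bp to the nearest CTRL peak), *Frmd8* (68 bp) and *Bmp6* (84 bp). Of the 521 BLM-only regions 10 had a CTRL peak within 200 bp and 455 had none within 1000 bp, with a median gap of 11611 bp.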

How the data were processed

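p53 ChIP-seq libraries of mouse alveolar organoids (CTRL and BLM, 2 each) were analysed from the peak lists. The submitters' processing notes name Trim Galore 0.6.7, Bowtie2 2.5.1, MACS3 3.0.0b1, DiffBind 3.8.4 and edgeR 3.40.2 without settings, and builds mm39 and mm10. The authors called peaks in each library and deposited for each a score, a fold enrichment (a ratio), the −log10 of its p-value and q-value and a summit; the lowest −log10 q was 2.00. The authors also deposited the 915 enriched regions, 390 of the 394 described being 400 bp wide, and gene distances from GREAT 4.0.4 (mm10; basal domains of 5000 bp upstream and 1000 bp downstream, extended by up to 1000000 bp). The test behind the enriched list and its threshold are not given in the sources used here. Peaks and regions are on GRCm39, and no position was converted.

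Where several peaks overlapped a region, the one with the highest fold was used. The summit of that peak can lie outside the region, so a fold was not always read within it. Overlaps, percentiles within a list, Fisher's exact tests and figures were made with Python 3.11.15, numpy 2.4.6, pandas 2.3.3, scipy 1.17.1 and matplotlib 3.10.9, and were tested on simulated data. Fold values come from libraries of unknown depth. RefSeq promoters (1412 of 1425 gene names matched) were read on GRCm38.p6. The regions, gene lists and rules were chosen with earlier results of these data known. Named genes are those of the lists with a vehicle-called region, the 10 regions within 5 kb of a TSS highest in BLM and in CTRL, the 10 largest and 5 smallest rises in mean percentile of regions called in all 4 libraries, and the 5 farthest regions. Alternatives were stricter or equally long lists, other overlaps, distances and rankings, and each library left out.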

Additional observations from a re-analysis of the deposited data

How the results depend on the processing

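Of 64 alternative values, 45 stayed within their limits (for a test, the same direction and the same side of 0.05; for a count, within 1.5 times; for a median, within 1 SD of the libraries), and no direction turned. The odds ratio for a TSS within 5 kb between vehicle-called and BLM-only regions was 2.78 to 3.17 over the alternatives that kept this distance. It was 5.39 with near taken as 1 kb, 2.44 with 10 kb and 1.81 with 50 kb. The odds ratio between regions called in both and in 1 CTRL list passed the threshold when the overlap had to cover 50% of the shorter interval (1.79, Fisher's exact p = 0.0267), with a −log10 q of at least 5 (1.95, p = 0.0202) and with near taken as 1 kb (3.31, p = 0.00133), and missed it with the others, falling to 1.10 at 10 kb; the cause was not tested. Against a median percentile of 57.1 in CTRL and 98.7 in BLM, averaged over the libraries, the values were 98.8 (BLM) with the 50% overlap, 56.2 and 98.8 with the stricter q, 58.5 and 99.1 with 39577 peaks from each list, 98.9 (BLM) with a CTRL summit inside the region, 59.7 and 98.9 when ranked by −log10 q, and 98.9 to 99.1 (BLM) with 1 CTRL library left out. Against median widths of 322 and 524 bp, they were 351 and 554 bp with the stricter q, 354 and 557 bp with equally long lists, and 302.5 bp (CTRL) with the summit inside. The median CTRL to BLM summit distance of 26 bp became 29 bp over peaks under 1000 bp wide. The number of vehicle-called regions was 326 without CTRL replicate 1 and 348 without CTRL replicate 2. Both BLM percentiles were above the remaining CTRL percentile in 298 of the 326 and 314 of the 348. With 1 BLM library left out, the remaining BLM percentile was above both CTRL percentiles in 257 and 254 of the 280. These last counts need fewer comparisons than the 242 with all libraries, so they could not be lower.

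Whether the replicate numbers pair the libraries is not known, since the labels tie no number to a mouse. Over 26316 joined regions the replicate difference in CTRL correlated with that in BLM at 0.00986, across regions that share libraries. With a replicate block, comparing same-numbered libraries only, BLM was above CTRL in both pairs in 253 of 280 regions, against 242. The block asks for only some of the comparisons behind the 242. Its count could therefore not be lower, and it says nothing about pairing. Library depth is unknown, which limits what a missing CTRL peak says about binding.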
